A study of Mus musculus with 4 samples.

Results

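The SMN complex is the machine that builds the protein core of spliceosomal snRNPs, the small RNA-protein particles that remove introns. It was described here through the 9 genes of its known subunits, taken by name: Smn1, Gemin2, Ddx20 (which encodes Gemin3), Gemin4, Gemin5, Gemin6, Gemin7, Gemin8 and Strap (which encodes Unrip). These were 9 of the 37718 gene rows in the deposited counts, and they carried 79 of 207562 intron rows, 144 exon segments and 95 annotated junctions. RNA had been taken from spermatocytes of mice 20 days post partum. Both genotypes carried the hCD4 surface tag under the endogenous Tdrd6 promoter, and hCD4+ cells were collected by magnetic sorting to enrich for the diplotene stage of meiotic prophase. Tdrd6+/- controls kept 1 working allele and Tdrd6-/- cells had none. Each genotype had 2 samples, each pooled from at least 4 mice, so p-values measured the spread between pools.

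In somatic cells, Gemin5 recognises the snRNA and Gemin2 holds an open ring of Sm proteins. The Tudor domain of SMN binds dimethylated arginines on SmB, SmD1 and SmD3. PRMT5 makes such marks, and the authors call it controversial whether PRMT7 also dimethylates. Gemin3 is an RNA helicase, Gemin4 accompanies it, and Gemin6, Gemin7, Gemin8 and Unrip form a peripheral unit. The finished particle is imported with the SMN complex and passes through Cajal bodies. TDRD6 is a germ cell Tudor protein of the chromatoid body. The comparison asked whether the mRNAs of this assembly machine, and their own splicing, differed in cells without TDRD6.

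The 4 samples held 26454326 to 31388750 counts over genes and 9603669 to 13937818 counts over introns. Introns took 34.5% and 29.5% of all counts in Tdrd6+/- cells, against 29.8% and 23.4% without TDRD6. Tdrd6 itself stood at 1269 and 1412 CPM (gene counts scaled to a common library size by the TMM factors of edgeR) in Tdrd6+/-, and at 11.4 and 12.5 in Tdrd6-/-, as labelled. Spermatocyte markers summed to 5030 to 5238 CPM in Tdrd6+/- and 5234 to 5414 in Tdrd6-/-. Hspa2 was the largest part of this sum, at 2071 and 2240 CPM against 2251 and 2305. In the gene test described below, Sycp1 and Sycp2 were called higher and Piwil1 lower among 12. Over all genes that test called 1.02% higher and 3.78% lower in Tdrd6-/-. Of 3 spermatid markers tested, Acrv1 and Spaca1 were called higher, beside the same 1.02% of all genes. Acr, the most abundant, was at 92.0 and 131 CPM in Tdrd6+/- and 96.4 and 96.2 in Tdrd6-/-. The spermatid list summed to 101 to 144 CPM against 116 to 118, while Prm1 was at 0 in 3 of 4 samples and Tnp1 and Tnp2 in 1 each. The 8 spermatogonia and early meiosis markers summed to 109 to 136 CPM in Tdrd6+/- and 129 to 147 in Tdrd6-/-, with 0 called. Dazl was the largest part of this sum, at 112 and 86.2 CPM against 101 and 115. Kit, Stra8, Gfra1, Dmrt1 and Sohlh1 were higher in both Tdrd6-/- samples than in both controls, beside 20.1% of all genes. Zbtb16, Uchl1 and Dazl overlapped. Stra8 had the smallest p of the list, with a log2 change of 0.92 and an adjusted p of 0.109 in edgeR. Sertoli, Leydig, peritubular and vessel, and macrophage and blood markers summed to at most 48.5, 9.20, 5.22 and 5.57 CPM in any sample, overlapped between genotypes, and held no called gene. In bulk RNA, fewer cells of a type and less RNA per cell cannot be told apart, and the part of these shifts in the values below was not tested.

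The SMN complex was expressed very unevenly. Divided by exon length, mean levels over the 4 samples ran from 90.0 CPM per kb for Strap to 0.693 for Gemin8, a 130-fold range. Strap lay above 96.8% of the 16223 tested genes with an exon length, Ddx20 above 93.3% and Gemin5 above 92.5%. Smn1, the gene the complex is named for, lay above only 51.2% and Gemin8 above 25.8%. The order was Strap, Ddx20 (50.4), Gemin5 (46.5), Gemin6 (15.3), Gemin4 (13.5), Gemin7 (8.77), Gemin2 (6.96), Smn1 (3.19) and Gemin8. Neighbours whose sample ranges overlapped were Ddx20 with Gemin5, Gemin6 with Gemin4 and Gemin7 with Gemin2, although Gemin6 was above Gemin4 in all 4 samples. The ranges of the other neighbours in this order did not overlap per kb of merged exon. Divided by the longest transcript instead, Smn1 lay above Gemin2 in Tdrd6+/- replicate 2. Summed over the 9 genes, the level per kb was 235 and 242 in Tdrd6+/- and 225 and 239 in Tdrd6-/-, so the samples of the 2 genotypes overlapped.

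**Figure D1:**
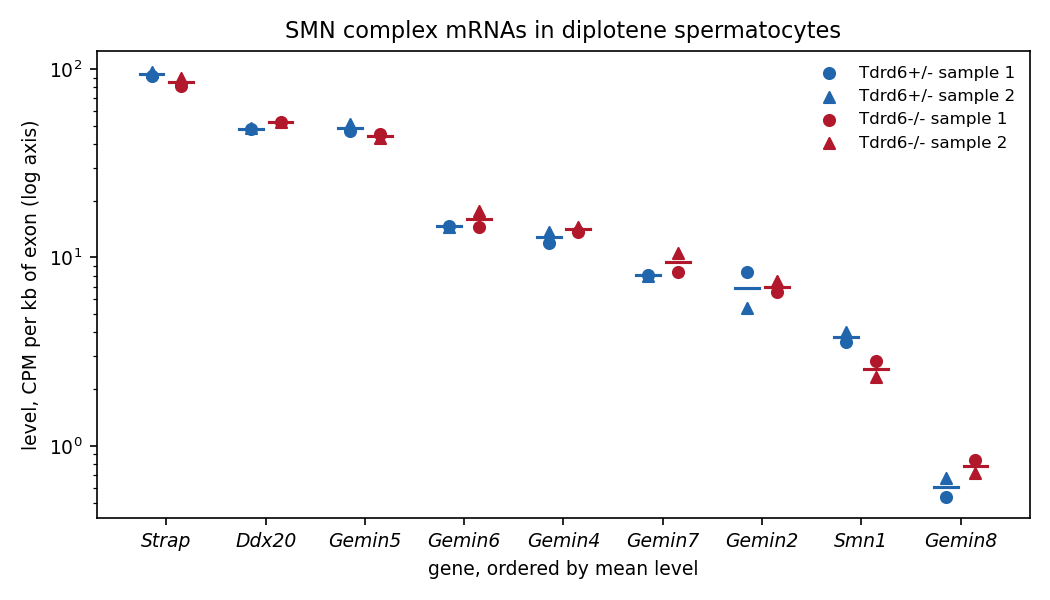
Level of each SMN complex mRNA in each sample, in CPM per kb of exon on a log axis, with genes ordered by their mean over 4 samples. Points are samples and short lines are genotype means. The genes are spread over a 130-fold range, while within most genes the genotypes lie close together, and Smn1 is the gene with the widest gap, with Tdrd6-/- samples below.

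No SMN complex gene was called as changed between the genotypes. The test was edgeR's quasi-likelihood test on gene counts with Benjamini-Hochberg adjustment at a false discovery rate of 0.1, which called 794 of 16555 genes, or 4.80%, of which 169 (1.02%) were higher and 625 (3.78%) lower in Tdrd6-/-. The smallest adjusted p among the 9 was 0.220. At an unadjusted p under 0.05 edgeR passed 1 of 9, Smn1, beside 14.0% of all genes, and DESeq2 also called 0 and passed the same gene. The median log2 change of the 9 was 0.12, with 6 above zero and 3 below, and the median over all tested genes was 0.01. In 6 of 9 the samples of the 2 genotypes did not overlap in CPM, beside 43.5% of all genes. In 3 of them Tdrd6-/- was higher, beside 20.1% of all genes, and in 3 lower, beside 23.4%.

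Smn1 (ENSMUSG00000021645, chr13:100124852-100137690, plus strand, mm10) encodes SMN, the scaffold that binds methylated Sm proteins. Its counts were 242 and 292 in Tdrd6+/- and 232 and 192 in Tdrd6-/-, which gave 9.24 and 10.5 CPM against 7.34 and 6.0. Both Tdrd6-/- samples lay below both controls after scaling. The log2 change was -0.56 with a standard error of 0.22, a 95% interval of -1.03 to -0.10 and an adjusted p of 0.220 in edgeR's test. It did not pass, and the estimate ranged from -0.42 without Tdrd6-/- replicate 2 to -0.72 without Tdrd6-/- replicate 1.

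Gemin2 (chr12:59013393-59028470, plus strand), the direct partner of SMN that binds the Sm ring, stood at 20.3 and 13.1 CPM in Tdrd6+/- and at 15.8 and 18.0 in Tdrd6-/-. The controls spanned the Tdrd6-/- values, and the interval of its log2 change was -0.41 to 0.45. Per kb of merged exon, Gemin2 was 2.36 and 1.34 times Smn1 in the controls and 2.31 and 3.23 times in Tdrd6-/-, again overlapping. The ratios of the other 7 genes to Smn1 did not overlap and were higher in Tdrd6-/-, as were those of 73.9% of all tested genes. These ratios share the Smn1 value of each sample. Gemin5, for example, was 13.1 and 12.6 times Smn1 in the controls and 15.9 and 18.7 times in Tdrd6-/-.

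Gemin5 (chr11:58120002-58168539, minus strand), which recognises the snRNA, was at 310 and 336 CPM in Tdrd6+/- and 298 and 286 in Tdrd6-/-. The Tdrd6-/- samples were both lower, by a log2 change of -0.14 (interval -0.41 to 0.12, adjusted p = 0.698 in edgeR). Ddx20 (chr3:105678270-105687574, minus strand), the DEAD-box helicase, differed in the other direction, with 200 and 201 CPM against 216 and 218. The SD between its pools was 1.07 CPM in Tdrd6+/- and 1.36 in Tdrd6-/- (n = 2 each). The log2 change of 0.12 (interval -0.15 to 0.38) did not pass, at an adjusted p of 0.775 in edgeR, which shares its estimate of spread across genes.

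Gemin4, the binding partner of Gemin3, could not be read from its gene row. That row joined it with Glod4 and Vps53, which the annotation connects through read-through transcripts. Gemin4 was therefore measured by exon segment 53, its coding exon (chr11:76210571-76213923, minus strand, mm10), a choice made after the files were seen. This exon also belongs to a Glod4 read-through transcript, but the 2 junctions into it told them apart. Each is printed 5′ to 3′ from the annotated transcripts, with the end of the upstream exon in lower case and the start of the shared Gemin4 exon in capitals.
Gemin4 junction 119: ccatggacctagGACCCTTGAATA
Gemin4 junction 120: ttattggatgatGACCCTTGAATA
Junction 119 starts in Gemin4's own first exon, and its counts were 13 and 21 in Tdrd6+/- and 12 and 21 in Tdrd6-/-. Junction 120, from the Glod4 exon, had 0 counts in every sample. Over the coding exon 1047 and 1281 counts were found in Tdrd6+/-, against 1448 and 1557 without TDRD6, or 40.0 and 46.0 CPM against 45.8 and 48.6. These overlapped, with a log2 change of 0.14 (interval -0.17 to 0.45). The whole joined row gave 0.11 with a standard error of 0.14.

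The peripheral subunits gave small differences in both directions. Gemin6 and Gemin7 are Sm-like proteins that pair with each other. Gemin6 (chr17:80224441-80228497, plus strand) was at 21.0 and 20.7 CPM in Tdrd6+/- and 20.6 and 25.2 in Tdrd6-/-, so the genotypes overlapped. Gemin7 (chr7:19564946-19577595, minus strand) was at 14.4 and 14.2 against 15.0 and 18.9, with both Tdrd6-/- samples higher (log2 change 0.24, interval -0.15 to 0.64). Without Tdrd6-/- replicate 2 these changes were -0.01 for Gemin6 and 0.08 for Gemin7. Gemin8 (chrX:166170454-166190512, plus strand), which joins this pair to SMN, had only 35 and 47 counts in Tdrd6+/- and 66 and 57 in Tdrd6-/-. Both Tdrd6-/- samples were higher in CPM, and its log2 change of 0.35 had the widest interval of the 9, -0.33 to 1.03. Strap (chr6:137735078-137751932, plus strand), the WD-repeat subunit, was at 285 and 298 CPM in Tdrd6+/- and 251 and 278 in Tdrd6-/-, both lower, with a log2 change of -0.14 (interval -0.41 to 0.12).

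**Figure D2:**
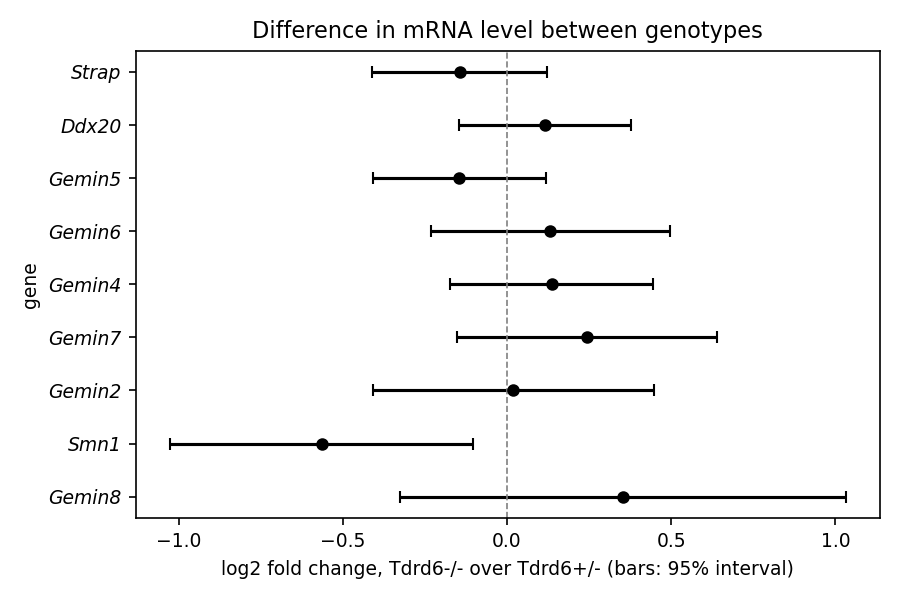
Difference in mRNA level of each SMN complex gene, as the log2 fold change of Tdrd6-/- over Tdrd6+/- from edgeR, with 95% intervals; Gemin4 is measured by its coding exon. The Smn1 interval, -1.03 to -0.10, is the one that leaves out zero, and its adjusted p is 0.220.

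The transcripts differed far more from each other in intron content than the genotypes did. Counts in introns per 100 counts on the gene averaged 358 ± 25.7 for Gemin8 (SD, n = 4), 51.4 ± 7.36 for Smn1 and 49.2 ± 7.56 for Gemin2. For the strongly expressed subunits they averaged 13.2 ± 2.05 for Gemin5, 11.0 ± 0.711 for Strap and 8.66 ± 0.564 for Ddx20. Gemin6 and Gemin7, which were expressed at lower levels, averaged 11.4 ± 2.37 and 18.5 ± 5.65. The median of all 15190 genes fitted was 63.2. Ddx20 had more intron content than only 4.75% of these genes, Strap than 7.14%, Gemin6 than 7.47% and Gemin5 than 9.41%, whereas Gemin8 exceeded 89.3%. Per kb of intron and of merged exon, Gemin8 introns reached 50.6% ± 3.63 of the exon density (SD, n = 4). Smn1 was at 13.0% ± 1.86, Gemin2 at 9.39% ± 1.44, Ddx20 at 6.95% ± 0.453 and Gemin6 at 6.21% ± 1.29. Strap was at 2.46% ± 0.160 and Gemin5 at 2.08% ± 0.323. These values depend on the exon length used. Merged exons of Smn1 span 2592 bp, against 1222 bp in its longest transcript, and those of Gemin2 2415 against 1946 bp. With the longest transcript as exon length, Smn1 would lie below Gemin2. The values also depend on ordering the introns against the annotation, which was not possible for Gemin7 and Gemin4.

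**Figure D3:**
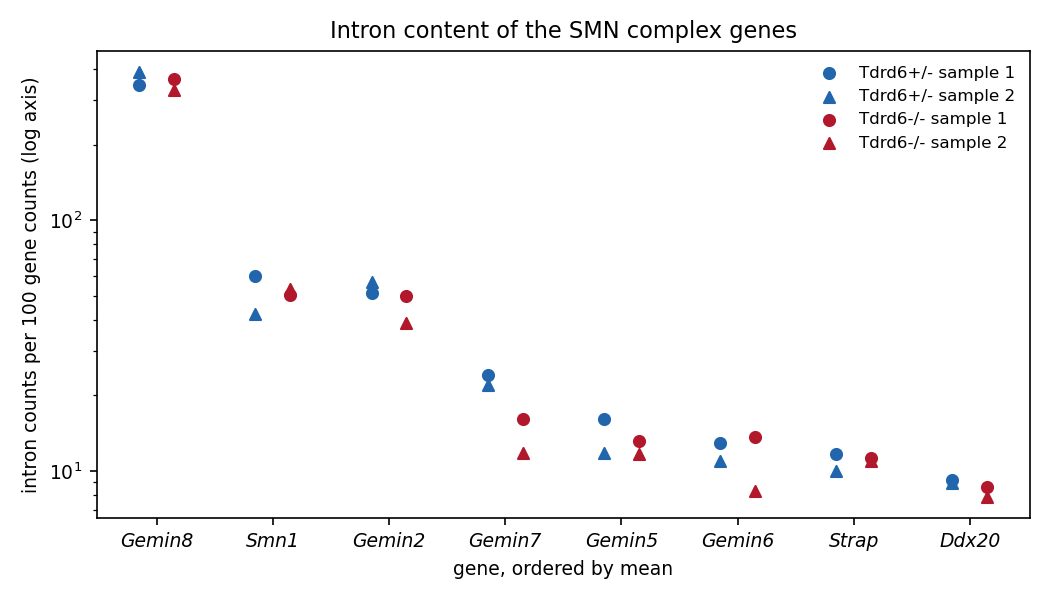
Intron counts per 100 gene counts for 8 SMN complex genes in each sample, on a log axis; Gemin4, whose sole intron row was at 0, is left out. Gemin8 lies near 358, Smn1 and Gemin2 near 50, Gemin7 near 18.5, and Gemin5, Gemin6, Strap and Ddx20 near 10. The genotypes are mixed in most genes.

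Gemin8 was the extreme case. Its first intron, 6294 bp long, held 49 and 115 counts in Tdrd6+/- and 134 and 102 in Tdrd6-/-, and its last, 8434 bp long, held 54 and 50 against 80 and 56. The first alone held more counts in every sample than the whole gene had over its exons. The junction across the last intron had 3, 5, 8 and 5 counts in the same order of samples, and that across the first had 3, 1, 0 and 0. Another annotated junction from the same end of the first exon, which reaches past the first intron, had 0, 0, 1 and 3. Most reads on Gemin8 in these cells therefore lay in introns in both genotypes.

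The ratio of intron to gene counts was tested per gene in DESeq2, with introns and genes scaled separately so that a gene is set against all others. Of the 8 genes fitted, only 3 (Ddx20, Gemin5 and Strap) were deep enough for an adjusted p, and none of these was called, beside 3.81% of 5177 genes with an adjusted p. DESeq2 passed 0 of the 8 at an unadjusted p under 0.05, beside 6.43% of all genes fitted, and edgeR passed 1, Gemin7, with 0 called by edgeR. Gemin7 had 24.1 and 22.0 intron counts per 100 gene counts in Tdrd6+/- and 16.0 and 11.7 in Tdrd6-/-. Its samples did not overlap, and the log2 change was -0.47 with a standard error of 0.34 in DESeq2. Gemin2 had 51.3 and 56.9 against 49.9 and 38.8, and Ddx20 9.21 and 8.93 against 8.62 and 7.90, both lower in each Tdrd6-/- sample before the scaling. After it their log2 changes were -0.01 and 0.14. With introns and genes scaled alike the median of all genes moved from 0.04 to -0.24, so only differences from that median were read. The 8 genes had a median log2 change of 0.14, and 6 lay above the all-gene median under either scaling. Strap was at 11.6 and 9.97 against 11.3 and 11.0, with a log2 change of 0.33 (SE 0.21) and an adjusted p of 0.538 in DESeq2.

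Retention of single introns was tested by setting each intron against the other introns of its gene, in the DEXSeq model. None of the 76 SMN complex introns with at least 10 counts was called, and 10 were deep enough for an adjusted p, beside 1.94% called of 28903 introns over all genes. Their smallest adjusted p was 0.671. At an unadjusted p under 0.05 DESeq2 and edgeR each passed 1, the same intron, beside 4.32% of all introns in DESeq2, and edgeR called 0. By direction 38 of the 76 were higher and 38 lower, and 35 lay above the median of all introns, 0.04. With the gene count as reference in place of the other introns, 52 were higher and 42 lay above the median of all introns, which was then 0.10. Shares of the gene's intron counts did not overlap between genotypes in 31.6% of the 76, beside 38.4% of all introns fitted.

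The intron that passed without adjustment was Smn1 intron 9, the last (chr13:100135740-100137380, plus strand, mm10). It follows the 51 bp penultimate exon, the counterpart of the human SMN exon whose skipping separates SMN2 from SMN1. The junctions into and out of that exon are shown because they report its inclusion, with the downstream exon in capitals.
Smn1 junction 36: ggctactatatgGGTTTCAGACAA
Smn1 junction 37: acaaattaagaaGTTCAGCTCTGT
Intron 9 had 22 and 16 counts in Tdrd6+/- and 8 and 3 in Tdrd6-/-. That was 15.2% and 13.0% of all Smn1 intron counts in the controls and 6.84% and 2.94% in Tdrd6-/-, a log2 change of -1.67 (SE 0.71, unadjusted p = 0.0169 in DESeq2). It was too shallow for an adjusted p there, and edgeR gave an adjusted p of 1. Without Tdrd6-/- replicate 2 the change was -1.16. Junction 36, into the exon, had 13 and 18 counts against 17 and 8, and junction 37, out of it, had 26 and 33 against 15 and 21. The first overlapped between genotypes, and the second was lower in counts in both Tdrd6-/- samples, as Smn1 was, while its share of the gene overlapped. The exon itself had 41 and 55 counts against 30 and 28. No annotated junction skips this exon and no unannotated Smn1 junction was listed, so its skipping could not be read from these rows.

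**Figure D4:**
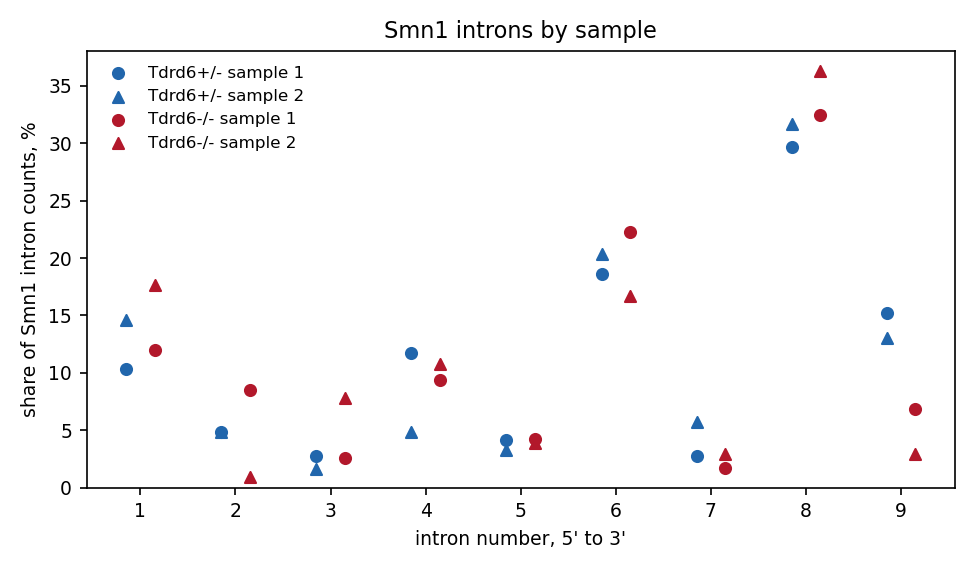
Share of all Smn1 intron counts held by each of its 9 introns, 5′ to 3′, in each sample. Intron 9 is at 15.2% and 13.0% in Tdrd6+/- and 6.84% and 2.94% in Tdrd6-/-, while intron 8, the most covered, lies between 29.7% and 36.3% in all samples.

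The most covered intron was compared for each of the 8 genes with intron counts. Ddx20 intron 9 held 25.8% and 25.2% of its gene's intron counts in Tdrd6+/- and 29.2% and 31.4% in Tdrd6-/-, the smallest adjusted p among the introns (0.671, DESeq2). Both Tdrd6-/- samples were higher, and the log2 change was 0.34 (SE 0.23). Strap intron 8 held 29.8% and 31.1% against 28.8% and 30.2%. Gemin5 intron 7 held 18.3% and 14.2% against 14.1% and 14.0%. Smn1 intron 8, Gemin2 intron 7, Gemin6 intron 1, Gemin7 intron 1 and Gemin8 intron 1 had log2 changes of 0.24, 0.27, 0.41, -0.07 and 0.13, each smaller than its standard error. Shares of Smn1 intron 8 and Gemin6 intron 1 were higher in both Tdrd6-/- samples, and those of the other 3 overlapped. Gemin5 introns 22 and 25 had the next smallest unadjusted p-values in the DESeq2 fit, 0.0710 and 0.0969, and moved in opposite directions (0.70 and -0.74).

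Exon segments, the non-overlapping pieces into which the annotation divides exons, and junctions were tested against the rest of their gene in the JunctionSeq model. None of the 211 with at least 10 counts was called, and 140 had an adjusted p, beside 0.207% called of 155428 over all genes. Their smallest adjusted p was 0.773. DESeq2 passed 10 at an unadjusted p under 0.05, or 4.74% beside 2.92% of all fitted, and edgeR called 0 and passed 4. Of those 10, 8 were higher in Tdrd6-/-, beside 60.7% of the features that passed over all genes. Adjoining segments and junctions of a gene share reads, so the 10 are not separate observations. Shares of the gene did not overlap in 37.4% of the 211, beside 34.6% of all fitted. For the Gemin4 features, the reference and the shares came from the joined row, which also holds Glod4 and Vps53. The median size of the log2 change was 0.10 in the members' 140 features and 0.11 over all.

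Strap and Ddx20 held 6 of these 10, all at their 5′ ends and all higher in Tdrd6-/-. The first 2 Strap junctions are printed because they carried it, with the downstream exon in capitals (chr6:137735467-137736329 and chr6:137736466-137739357 are the spliced introns, plus strand, mm10).
Strap junction 15: gcgcttgcaaagATGGCAAGCCCA
Strap junction 16: agacttcacagcCAAAGTATGGGA
Junction 15 had 294 and 402 counts in Tdrd6+/- and 423 and 516 in Tdrd6-/-, or 3.93% and 4.83% of the gene against 5.34% and 5.81% (log2 change 0.37, SE 0.15, adjusted p = 0.803 in DESeq2). Junction 16 was at 6.05% and 5.84% against 7.04% and 7.08% (0.27, SE 0.12). Both were higher in each Tdrd6-/- sample, and the adjoining exon segments 1 and 2 gave 0.30 and 0.27. The changes became smaller along the gene, and from the fifth junction onward all were slightly below zero.

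In Ddx20, which lies on the minus strand so that its highest-numbered segments are the 5′ ones, segment 14 had 10 and 6 counts in Tdrd6+/- and 25 and 45 in Tdrd6-/-. Its log2 change was 1.75 (SE 0.58, unadjusted p = 0.00187 in DESeq2), the smallest p of the 211. It was too shallow for an adjusted p there, and edgeR gave 0.263. The next segment, 13, held 5.61% and 5.04% of the gene in Tdrd6+/- and 6.13% and 7.70% in Tdrd6-/- (0.40, SE 0.16, adjusted p = 0.773 in DESeq2). Both Tdrd6-/- samples were higher in each.

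A tilt toward the 5′ end was also seen over all genes. Over 3604 genes with at least 5 junctions deep enough for an adjusted p, the 5′-most junction had a median log2 change of 0.13 and was higher in Tdrd6-/- in 74.4% of genes, against 0.02 and 54.8% for the 3′-most. The median ratio of 5′-most to 3′-most junction counts was 0.731 and 0.721 in Tdrd6+/- and 0.769 and 0.778 in Tdrd6-/-. Its part in the Strap and Ddx20 values was not tested.

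**Figure D5:**
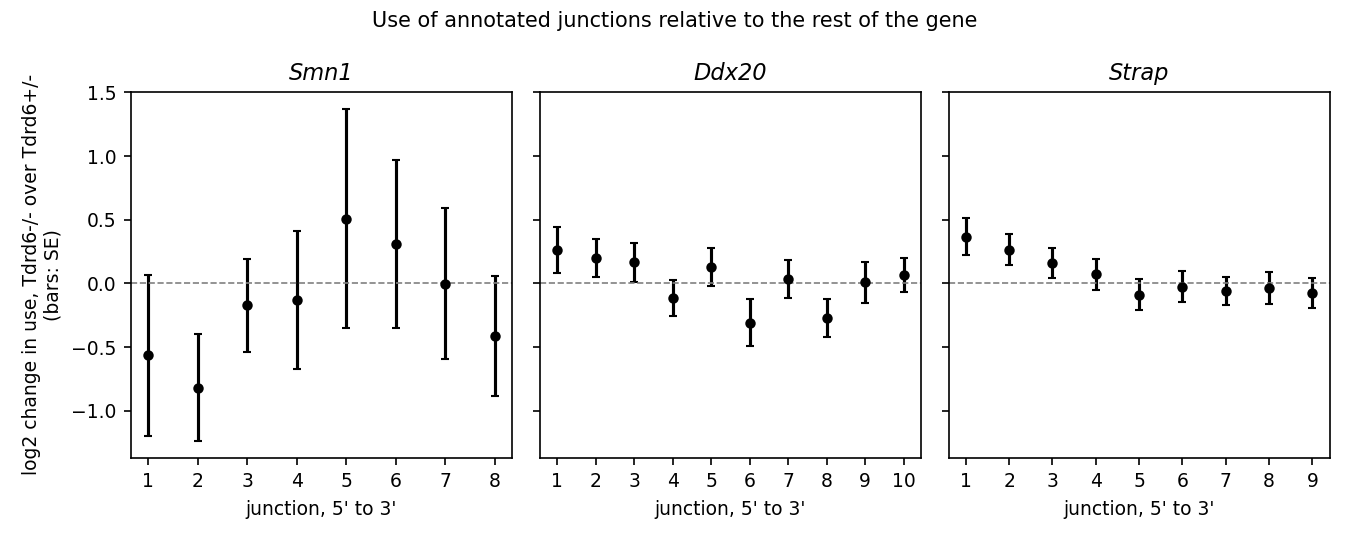
Log2 change in use of each annotated junction of Smn1, Ddx20 and Strap with at least 10 counts, relative to the rest of the gene, in 5′ to 3′ order; bars are standard errors. Strap starts at 0.37 and ends just under zero. In Ddx20, 7 of 10 junctions are above zero, the 3 first among them. The Smn1 bars are wider than those of both other genes.

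The other features that passed without adjustment did not share a position. Gemin2 junction 27, its last (the intron at chr12:59026914-59027736, plus strand, mm10), had 38 and 40 counts in Tdrd6+/- and 71 and 79 in Tdrd6-/-. It is shown with the last exon in capitals.
Gemin2 junction 27: cttagttagcagGTATTTTGATCA
That was 7.14% and 11.0% of the gene against 14.2% and 13.7%, a log2 change of 0.74 (SE 0.32, adjusted p = 0.958 in DESeq2). The intron it removes had 32 and 17 counts against 19 and 18, so the genotypes overlapped there. Gemin5 junction 58 had 118 and 169 counts against 202 and 198 (0.41). Smn1 segment 8, an early coding exon, held 33.9% and 24.0% of the gene against 16.8% and 23.4% (-0.69, SE 0.34), and junction 31, which leads into it, 16.5% and 14.0% against 8.19% and 10.4% (-0.82, SE 0.42). These 2 share reads, and both were lower in each Tdrd6-/- sample.

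The 9 genes had 2 unannotated junctions listed, beside 95 annotated ones, and the share over all genes was not counted. Of the 2 listed with at least 10 counts, Gemin5 junction 65 had 11 and 7 counts in Tdrd6+/- and 4 and 9 in Tdrd6-/-, and Gemin6 junction 8 had 9 and 8 against 20 and 10. The first overlapped between genotypes, and in the second the excess lay in 1 Tdrd6-/- sample. Neither had an adjusted p.

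Genes listed as acting before or after the SMN complex were counted in the same test. Of 36 tested genes on 5 lists, Gar1 alone was called, beside 4.80% of all genes. The median log2 change of the 36 was 0.08. At that share a short list may well hold 0 called genes, so such a count does not describe the list. Of the 7 Sm ring genes, the cargo of the complex, 0 were called in either direction (median 0.18). The 2 with the smallest p moved oppositely. Snrpd3 (SmD3) was at 20.4 and 24.3 CPM in Tdrd6+/- and 17.2 and 16.1 in Tdrd6-/-, and Snrpg (SmG) at 7.18 and 6.35 against 8.38 and 10.2, with adjusted p-values of 0.267 and 0.365 in edgeR.

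Of the 5 tested genes of the methylosome and its partners, 0 were called (median 0.08). PRMT5 and PRMT7, encoded by genes on this list, methylate Sm proteins before they reach SMN. Wdr77, also listed, lay in a joined row and was not tested. Clns1a, the chaperone that hands Sm proteins over, was at 45.2 and 50.5 CPM against 53.6 and 61.3, and Prmt7 at 184 and 192 against 192 and 227. Of the 9 genes for snRNA export, cap and import, 0 were called (median -0.13). Xpo1, the exportin, was at 330 and 277 against 274 and 246, and Kpnb1, the import receptor, at 815 and 891 against 769 and 734. Clns1a, Prmt7, Xpo1 and Kpnb1 were named for the smallest p of their lists. None passed, and the smallest adjusted p was 0.454 in edgeR.

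Of the 9 tested genes on the Cajal body list, 0 were called. Their median of 0.02 was the value of Usp47, a ubiquitin-specific protease. Nothing in these data ties Usp47 to Cajal bodies, so this median rests on a list entry that was not checked. Coil, which encodes coilin, lay in a joined row and was not tested. Ice1 was at 38.2 and 27.8 CPM against 27.4 and 20.8, and Sart3, a U4/U6 recycling factor, at 42.9 and 37.3 against 31.9 and 30.2, with adjusted p-values of 0.240 and 0.269 in edgeR. Without Tdrd6+/- replicate 2, Ice1 passed (adjusted p = 0.0630, log2 change -0.66). Among 6 other clients of SMN, the U7 and H/ACA proteins, 1 was lower and 0 were higher (median 0.17). Gar1, an H/ACA RNP protein, was at 8.40 and 9.15 CPM in Tdrd6+/- and 4.21 and 4.31 in Tdrd6-/-, a log2 change of -1.04 (SE 0.23, adjusted p = 0.0122 in edgeR). Without a filter on low counts it did not pass (adjusted p = 0.159 in edgeR). Nop10, of the same particle, was at 75.6 and 82.9 against 88.0 and 111, which did not pass (adjusted p = 0.282).

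By the root mean square distance between centred log2 CPM over the 4 samples, the listed genes nearest to the mean profile of the 9 were Ncbp2 (0.03), Riok1 (0.05) and Usp47 (0.05). Ncbp2 was at 26.7 and 28.9 CPM in Tdrd6+/- and 27.9 and 28.3 in Tdrd6-/-. All 3 had log2 changes of at most 0.08, and with 4 samples the likeness is a description.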

How the data were processed

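Total RNA of 4 samples was depleted of rRNA, made into strand-specific libraries and sequenced by the authors, who aligned the fragments to mm10 with GSNAP and counted them over Ensembl 75 genes, introns, exon segments and junctions. The values the authors deposited are whole-number counts, not normalized, with 1 sample per file. The counting program and its settings are not given in the sources used here.

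Gene counts were tested in edgeR 4.0.16 (TMM factors, filterByExpr, quasi-likelihood test). Intron use, exon segment and junction use and the intron to gene ratio were fitted in DESeq2 1.42.0 (R 4.3.3) as in DEXSeq and JunctionSeq, neither of which was run, on features with at least 10 counts in all, with a likelihood ratio test and independent filtering. Each used 2 samples per genotype, Benjamini-Hochberg adjustment over all features and a false discovery rate of 0.1. Each main test, and edgeR for introns, was checked on simulated counts, with changes placed only in well-covered features. Part of the changes was missed, most often for exon segments and junctions. False calls exceeded the set rate for genes, for exon segments and junctions, and for introns in edgeR. A feature that was not called is therefore not shown to be unchanged. An exact permutation test of 2 against 2 cannot go below p = 0.33. Intervals are 95%.

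Positions and junction sequences come from GENCODE M21 (mm10), matched to rows by order where the number of rows agreed, which left out the Ddx20 and Gemin7 segments and junctions and the Gemin7 and Gemin4 introns. Named features were the 9 genes, every called feature, the 3 introns, 3 segments and 3 junctions of smallest p, the most covered intron of each gene, unannotated junctions, and up to 4 genes per list (2 where fewer than 2 passed). Those others that passed p of 0.05 unadjusted were named after their values were seen. Members and lists were chosen with earlier results of these data known. Snrpn and 4 listed genes in joined rows (Wdr77, Coil, Izumo1, Insl3) were not analysed here. Levels of genes are compared per kb of merged exons. The alternatives tried were other tools, scalings, filters, lengths and thresholds, a replicate block and leaving out each sample.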

Additional observations from a re-analysis of the deposited data

How the results depend on the processing

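Under every alternative run, 0 SMN complex genes, introns, exon segments, junctions or intron ratios were called, including the stricter rate of 0.05 and leaving out each sample. Over all features the counts moved widely. Without a filter on low counts 75 genes were called, and Gar1 did not pass (log2 change -1.02, adjusted p = 0.159). Leaving out 1 sample gave 257 to 1064 genes, 4 to 1175 introns, 51 to 765 exon segments and junctions and 2 to 147 intron ratios. For introns (561 called, 36.9% higher), a rate of 0.05 gave 327, edgeR 2, at least 50 counts 311, no filter 220, and the gene count as reference 1266, of which 24.7% were higher. For segments and junctions (322) edgeR gave 80. For ratios (197, of which 61 were higher) a rate of 0.05 gave 117, edgeR 348 and 1 set of size factors 71, of which 1 was higher.

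The labels give both genotypes the numbers 1 and 2 but state no pairing, and deviations of same-numbered samples correlated at -0.11 over 12347 genes. With a replicate block 1046 genes, 881 introns, 302 segments and junctions and 107 ratios were called. With the numbers crossed, a pairing added after seeing the data, the counts were 1175, 255, 280 and 91.

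Estimates near zero changed sign when 1 sample was left out. Over the 4 omissions, gene log2 changes ran from -0.26 (without Tdrd6+/- replicate 2) to 0.38 for Gemin2, which gave -0.07 without Tdrd6-/- replicate 2, and from -0.0081 to 0.27 for Gemin6. Usage ran from -0.0016 to 0.60 for Gemin2 intron 7, from -0.41 to 0.29 for Gemin7 intron 1 (0.23 without Tdrd6+/- replicate 2), from -0.47 to 0.84 for Gemin8 intron 1 and from -0.28 to 1.05 for Gemin6 unannotated junction 8. Ratios ran from -0.17 to 0.11 for Gemin2, from -0.012 to 0.27 for Ddx20, from -0.041 to 0.28 for Gemin5 and from -0.041 to 0.26 for Gemin6. Strap intron 8 gave 0.32 against the gene count. With 1 set of size factors the ratios of Ddx20, Gemin5, Gemin6 and Gemin8 were -0.14, -0.15, -0.15 and -0.084. The causes were not tested.

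Divided by the longest transcript, the mean levels per kb were 6.76 for Smn1, 8.63 for Gemin2, 71.8 for Ddx20 and 19.3 for Gemin6. Those of Gemin7, Gemin8 and Strap were 15.3, 0.894 and 105. This put Gemin7 above Gemin4 and kept the rest of the order of means. In Tdrd6+/- replicate 2, however, Gemin2 was below Smn1 on this length. With 2 samples per genotype and 192 to 292 counts, the 95% interval of the Smn1 change ran from -1.03 to -0.10 and that of Gemin8, with 35 to 66 counts, from -0.33 to 1.03.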
